A study of Sus scrofa with 6 samples.

Results

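Long non-coding RNAs (lncRNAs) that a pig atlas of adult organs had assigned to the testis alone were examined in ovary. The study assembled 10813 pig lncRNAs and assigned those with a restricted pattern to tissues, from 1 adult library per organ of the Guizhou miniature pig. For skeletal muscle, libraries of younger postnatal stages were used as well, and lncRNAs specific to any of its stages were assigned to muscle. In the rows of that assignment that could be read, 498 of the 10813 lncRNAs carried testis as their only tissue, and these 498 are the testis-specific lncRNAs described below. None of the ovary samples was used to choose them. Ovary was sequenced in 6 libraries at 49 days post coitus. The Meishan breed, from China, gave 3 of them, and the Large White breed, from Europe, gave the other 3. Nothing else is recorded as differing between the breeds, and how many animals stand behind each library is not stated, so p-values measure the spread between these libraries, which may in part be technical. The labels do not say whether the ovary was that of the fetus or of the pregnant sow.

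LncRNAs are transcripts without a long open reading frame, and many lie in or beside protein-coding genes, from which they can be read on the opposite strand. The mammalian testis is known for transcribing more of them than other organs, mostly in the male germ cells that pass through meiosis and become spermatids. An ovary holds female germ cells or oocytes, the somatic cells around them and steroid-making cells, and none of the male stages. The comparison therefore asks which lncRNAs of the testis list are also present in ovary, at what level, and whether the 2 breeds differ. Levels are given in RPKM, reads scaled to the length of the feature and to the mapped reads of the sample. Between samples they can be compared only as far as the make-up of the RNA is alike. Summed over all lncRNAs, RPKM ran from 6029 in Meishan 3 to 9773 in Large White 2.

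The samples held 35185781 to 39033204 mapped reads, and at least 4895 to 7031 reads per sample fell on the 498 testis-specific lncRNAs. On a feature of 1 kb, 3 reads were worth 0.0769 to 0.0853 RPKM, and a lncRNA listed at 0 may still be present below that. Most markers of male stages were low. Of 16 spermatid genes found in the files, 14 were under 0.5 RPKM in all 6 samples, and PRM1, ODF1 and ACRV1 were listed at 0 throughout. The exceptions were ODF2, at 3.37 to 6.86 RPKM, and TNP2, at 0.346 to 2.23 RPKM. Of 11 germ cell genes, 7 were under 0.5 RPKM in all samples, among them MAEL and TFAP2C, and the list summed to 5.12 to 19.2 RPKM, with KIT, which somatic cells also use, at up to 16.9 RPKM. DDX4, the germ cell RNA helicase, was listed at 0 in Meishan 1, at 1.58 RPKM in Meishan 2 and at 0.466 RPKM in Meishan 3, and its level in Large White 1, 2 and 3 was 0.318, 0.374 and 0.0375 RPKM. Of 13 meiotic genes, 5 were under 0.5 RPKM in all samples, including SYCP1 and DMC1, while MSH4 reached 9.40 to 19.0 RPKM and the list summed to 25.2 to 36.1 RPKM. Of 12 ovarian somatic genes listed, 6 were found in the files. GATA4 was at 18.1 to 30.4 and WT1 at 9.24 to 12.3 RPKM, while LGR5 and IRX3 were under 0.5 RPKM in all samples. CYP11A1, which opens steroid synthesis from cholesterol, was at 506 to 1882 RPKM. The 6 oocyte genes found summed to 1.46 to 4.73 RPKM, and of 7 Y-linked genes looked up none was matched to the files. Meishan 3 stood apart from the other samples. It had the lowest CYP11A1 and the highest INSL3, at 235 RPKM against 1.04 to 15.6 RPKM elsewhere. In a check chosen after the values were seen, INHA, the inhibin alpha chain of follicles, was at 491 RPKM in Meishan 3 against 2.05 to 4.93 RPKM elsewhere, and TOP2A, a gene of dividing cells, at 34.6 against 1.37 to 1.83 RPKM. Counts are therefore also given without Meishan 3. In whole tissue, fewer cells of a type and less RNA per cell cannot be told apart.

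Of the 498 testis-specific lncRNAs, 303 (60.8%) were above 0 RPKM in at least 1 ovary sample, and 195 were listed at 0 in all 6. Of all 10813 lncRNAs, 57.1% were above 0 in at least 1 sample. The number above 0 was 160, 159 and 225 in Meishan 1, 2 and 3 and 169, 136 and 150 in Large White 1, 2 and 3. Meishan 3 was the highest, and the other 5 samples lay between 136 and 169. It was also the highest for all lncRNAs, with 42.8% above 0 against 28.7% to 36.5% in the other samples. In part, detection rested on few reads and few samples. Per sample, at most 14 to 40 of the lncRNAs above 0 had 1 or 2 reads, since recovered reads are lower bounds where the length is not known. Of the 303, 73 were above 0 in all 6 samples, 87 were above 0 in 1 sample, and 38 of these 87 were seen in Meishan 3. Over all lncRNAs, 1522 were above 0 in 1 sample, and 607 of these were seen in Meishan 3, so this was not particular to the list. Without Meishan 3, 265 (53.2%) were above 0 in at least 1 of the 5 other samples and 74 in all 5. The median over the 303 of the highest sample was 0.467 RPKM.

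At a limit of 0.5 RPKM, 143 of the 498 (28.7%) were reached in at least 1 sample and 26 (5.22%) in all 6. Per sample, 67, 72 and 80 reached it for Meishan and 65, 68 and 78 for Large White, so that the samples lay close together and Meishan 3 was no longer far from the rest. Of the 143, 50 reached the limit in 1 sample, 23 in 2 samples, 11 in 3, 20 in 4 and 13 in 5. Without Meishan 3, 130 reached it in at least 1 sample and 30 in all 5.

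The testis list was seen in ovary about as often as the lncRNAs as a whole. Between 13.1% and 16.1% of its members reached 0.5 RPKM per sample, against 12.2% to 15.9% of all 10813 lncRNAs. In all 6 samples, 5.22% of the list and 6.10% of all lncRNAs did so. By its methods, the study assigned a tissue only at 0.5 RPKM or more there, which not all 10813 need reach. Of all 962 lncRNAs with a readable assignment, the testis list among them, 18.1% to 24.8% reached 0.5 RPKM per ovary sample and 8.84% in all 6. Beside these, the testis list was the less often seen. The mean over the 6 samples was at least 1 RPKM for 39 members (7.83%) and for 8.02% of all lncRNAs. The 116 lncRNAs assigned to adult ovary alone were seen more often, 39.7% to 52.6% per sample at 0.5 RPKM, and the 274 assigned to 1 of 7 somatic tissues lay between, at 14.6% to 27.0%. These shares describe lists of different size and were not tested against each other. Only a part of the tissue assignment could be read, so the 10813 also hold testis-specific lncRNAs outside the list.

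**Figure D1:**
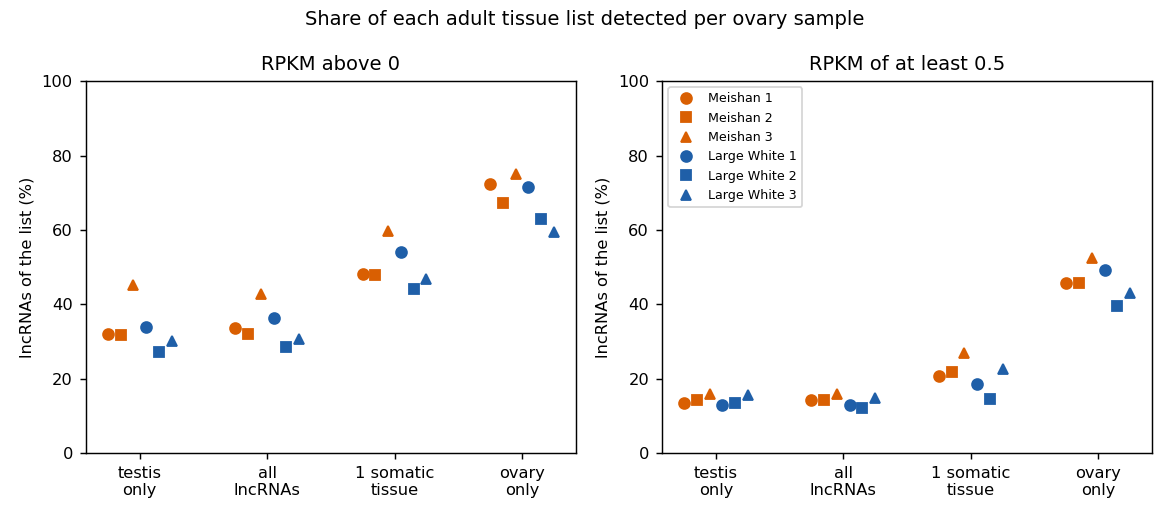
Share of each list of lncRNAs found in each ovary sample, in percent of the list, at an RPKM above 0 (left) and of at least 0.5 (right), with Meishan samples in orange and Large White samples in blue. At 0.5 RPKM the testis list sits at 13.1% to 16.1% beside all lncRNAs at 12.2% to 15.9%, and the adult ovary list at 39.7% to 52.6%.

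The class of the lncRNA, its place relative to genes, went with detection. Antisense members, which overlap an exon of a gene on the other strand, were above 0 in at least 1 sample for 19 of 20, and 15 (75.0%) reached 0.5 RPKM. Members in cis-regulatory regions, within 2 kb of a gene but sharing no exon with it, were above 0 for 37 of 48, and 20 (41.7%) reached 0.5 RPKM. Intronic members were above 0 for 21 of 31, and 12 (38.7%) reached 0.5 RPKM. Intergenic members were above 0 for 226 of 399, and 96 (24.1%) reached 0.5 RPKM. The antisense class was thus the most often seen and the intergenic class the least. Among other lncRNAs of the study's annotation, antisense lncRNAs were also the most often seen of the gene-linked classes, with 51.3% of 423 antisense, 49.2% of 537 intronic and 34.2% of 941 cis-regulatory lncRNAs reaching 0.5 RPKM. In the somatic and ovary lists, 34.6% and 66.2% of the intergenic class reached 0.5 RPKM in at least 1 sample, again the lowest class. Above 0 RPKM the order was another in the somatic list, with intergenic at 71.5% above antisense at 69.2% and intronic at 63.6%.

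Position and sequence class were readable for 97 of the 498, none of them intergenic. They lay on chromosomes 1 (60 members), 10 (14), 11 (13) and 12 (10) of the S. scrofa v10.2 genome, the chromosomes that the readable rows cover. Most had few exons, with 2 exons in 59 and 3 exons in 29. A CpG island was marked for 35 of the 97, and 21 of these 35 reached 0.5 RPKM in at least 1 sample, against 24 of the 62 without one (38.7%). For the other lncRNAs of the annotation the shares were 41.9% of 671 with an island and 42.4% of 1230 without. Above 0 RPKM, members with an island were seen for 30 of 35 and those without for 45 of 62, and the other lncRNAs for 72.0% and 67.3%. These differences were not tested. Alignment to both the human and the mouse genome was recorded for 56 of the 97, and 25 of these 56 (44.6%) reached 0.5 RPKM, against 10 of 19 (52.6%) of those aligned to neither. On the same strand, 8 of the 97 shared bases with another lncRNA of the annotation, so that reads could have been split or left out there. Of the 8, 1 was listed at 0 in all samples, and of the 89 that shared none, 21 were.

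The level was concentrated in few members. The level summed over the list was 200.3, 211 and 193 RPKM in the Meishan samples and 174, 172 and 182 RPKM in the Large White samples, and the 10 highest members of each sample made up 35.1% to 55.4% of it. A mean of at least 5 RPKM was reached by 6 members, and 4 members were among the 100 highest of all lncRNAs. The 26 that reached 0.5 RPKM in every sample had means of 0.958 to 18.9 RPKM, with a median of 2.90 RPKM. They were 14 intergenic, 7 antisense, 4 cis-regulatory and 1 intronic lncRNA. Meishan 3 was the highest sample for 7 of the 26 and the lowest for 6.

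**Figure D2:**
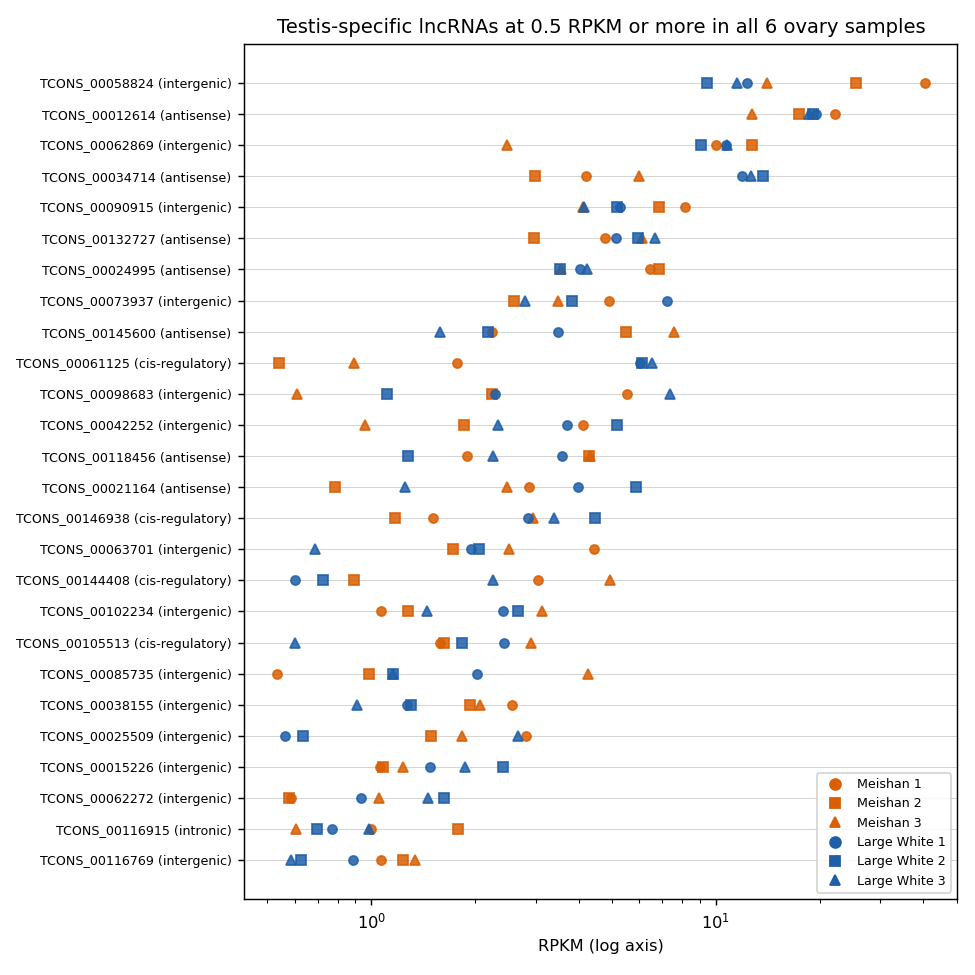
Level in RPKM (log axis) of the 26 testis-specific lncRNAs with at least 0.5 RPKM in all 6 ovary samples, ordered by mean, 1 symbol per sample, Meishan in orange and Large White in blue. TCONS_00061125 and TCONS_00034714 show the breeds apart, while for most of the others the symbols mix.

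The highest member was TCONS_00058824, an intergenic lncRNA, at 40.5, 25.5 and 14.1 RPKM in Meishan 1, 2 and 3 and at 12.3, 9.45 and 11.5 RPKM in Large White 1, 2 and 3. All Meishan samples lay above all Large White samples, and Meishan 1 was the highest. The next was TCONS_00012614, at 22.1, 17.5 and 12.7 RPKM in Meishan and 19.5, 19.1 and 18.6 RPKM in Large White. It lies at chr1:87798343-87804946 on the plus strand with 3 exons, antisense to LAMA4, the laminin alpha 4 chain of basement membranes. LAMA4 was at 25.5 to 44.7 RPKM, and the ratio of lncRNA to gene stayed within 0.436 to 0.530. Both were lowest in Meishan 3, while the lncRNA was highest in Meishan 1 and LAMA4 in Large White 1. The ratio was 0.494 to 0.530 in Meishan and 0.436 to 0.473 in Large White. The third, the intergenic TCONS_00062869, was at 10.02, 12.7 and 2.47 RPKM in Meishan and at 10.7, 9.05 and 10.8 RPKM in Large White. Here Meishan 3 alone was low and the 5 other samples were close together. TCONS_00090915, also intergenic, was at 8.15, 6.84 and 4.10 RPKM in Meishan and at 5.28, 5.16 and 4.13 RPKM in Large White, and the breeds overlapped. TCONS_00073937, intergenic as well, was at 4.90, 2.60 and 3.49 RPKM in Meishan and at 7.23, 3.83 and 2.79 RPKM in Large White, with neither breed higher throughout.

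Antisense members with a known gene on the other strand were the other large group among the highest. TCONS_00132727 (chr11:12789821-12800472, minus strand, 4 exons) lies antisense to ALG5, a glucosyltransferase of the N-glycan pathway, and was at 4.76, 2.98 and 6.12 RPKM in Meishan and 5.13, 5.94 and 6.66 RPKM in Large White. It was lowest in Meishan 2, as ALG5 was, and stood at 0.395 to 0.557 of ALG5. TCONS_00024995 (chr1:177064738-177070457, plus strand, 2 exons), antisense to the ubiquitin ligase gene RNF152, was at 6.45, 6.84 and 3.56 RPKM in Meishan and at 4.02, 3.54 and 4.22 RPKM in Large White. It stood at 0.482 to 0.767 of RNF152, and Meishan 1 and 2 were the high samples for both. TCONS_00145600 (chr12:6394684-6396020, plus strand, 2 exons) was at 2.24, 5.50 and 7.57 RPKM in Meishan and 3.49, 2.19 and 1.58 RPKM in Large White, and stood above its gene TMEM104 in every sample, at 1.08 to 3.19 times its level. TCONS_00118456 (chr11:14267313-14270849, plus strand) and TCONS_00021164 (chr1:149909652-149914898, plus strand), whose genes have no symbol in the files used, ranged over 1.28 to 4.30 and 0.786 to 5.86 RPKM. For neither were the breeds apart. The libraries were prepared and counted by strand, and how completely the strands were separated was not measured here.

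Across the 101 pairs of a lncRNA with a gene of the annotation, the gene was the higher of the pair in 84. Among the 20 antisense pairs it was the higher in 13.

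Meishan samples held 181 ± 37.8 testis-specific lncRNAs above 0 (SD, n = 3), and Large White samples held 152 ± 16.6 (SD, n = 3). The difference of 29.7 did not exceed the spread between replicates (exact permutation test, two-sided, p = 0.4). With 3 samples a breed, such a test cannot give a p below 0.1. Without Meishan 3 the difference was 7.83 (exact permutation test, two-sided, p = 0.7).

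Levels were compared with limma on log2(RPKM + 1) over all features with at least 0.5 RPKM in at least 3 samples. A feature was called at an adjusted p (Benjamini-Hochberg over all tested features) under 0.05 and at least a 2-fold change on that scale, which understates the change of low features. Of the 498 testis-specific lncRNAs, 70 passed the filter on low values, and 2 of them were called. Both were lower in Meishan. The share called was 0.758% of all 14902 features tested and 0.925% of the 1514 lncRNAs tested, with 0.544% and 0.793% lower in Meishan and 0.215% and 0.132% higher. The 2 of 70 are too small a count to be read as above these shares. At an unadjusted p under 0.05 there were 10 members (14.3%), 6 higher and 4 lower in Meishan, against 15.9% of all features and 14.7% of the lncRNAs. The median log2 fold change of the 70, Meishan relative to Large White, was 0.09, as it was for the tested lncRNAs, against -0.03 for all features. For 31 of the 70, the 95% confidence interval of the difference lay wholly within a 2-fold change either way. This held for 779 of the 1514 lncRNAs and 10286 of the 14902 features tested, both larger shares. Of the 54 tested members of the adult ovary list and the 62 of the somatic list, none was called by limma, with 10 and 8 at an unadjusted p under 0.05.

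**Figure D3:**
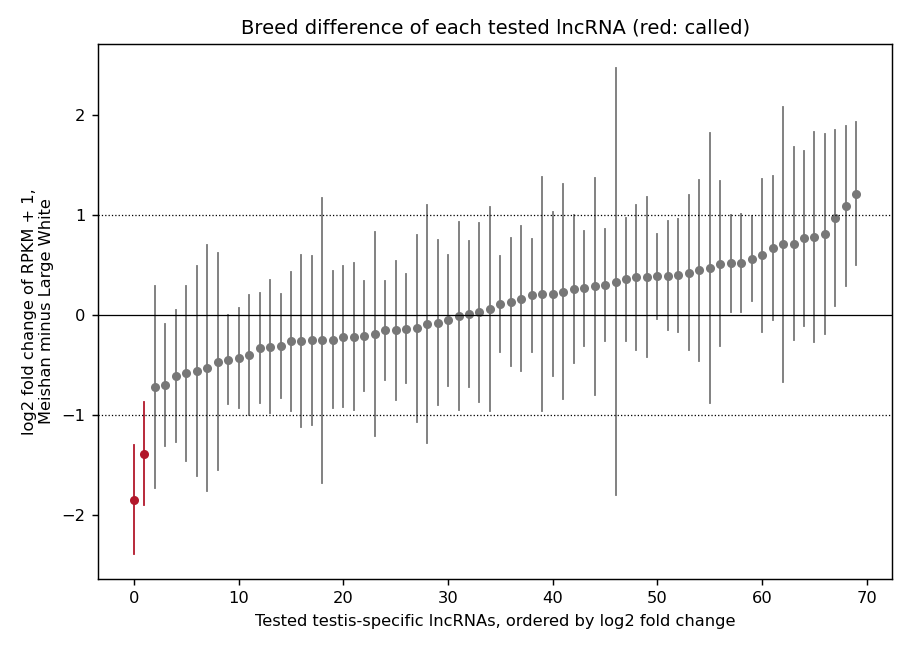
Log2 fold change of RPKM + 1, Meishan minus Large White, for each of the 70 tested testis-specific lncRNAs in order of size, with 95% confidence intervals from limma and dotted lines at a 2-fold change. The 2 called lncRNAs (red) lie at the far left, at -1.85 and -1.39, and the rest run up to 1.21 with intervals that mostly include 0.

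The larger of the called differences was that of TCONS_00061125, which lies at chr1:114166262-114168697 on the minus strand in 3 exons, in the cis-regulatory class. It was at 1.78, 0.541 and 0.892 RPKM in Meishan 1, 2 and 3, from 84, 26 and 45 reads, and at 6.03, 6.12 and 6.52 RPKM in Large White 1, 2 and 3, from 274, 296 and 314 reads. Every Large White sample was at least 3 times as high as every Meishan sample, and the Large White samples were nearly equal. The mean RPKM was 5.81-fold higher in Large White, and the log2 fold change on the scale of the test was -1.85 ± 0.24 (SE, limma adjusted p = 0.0234). The gene within 2 kb on the same strand is STARD6 (ENSSSCG00000004530), a lipid transfer protein of the START family known from male germ cells. STARD6 was at 3.13, 0.669 and 1.27 RPKM in Meishan and at 20.5, 18.6 and 16.0 RPKM in Large White, with a log2 fold change of -2.95 ± 0.32 (SE, limma adjusted p = 0.0145). The lncRNA and the gene thus shared their order among the Meishan samples, 1 above 3 above 2, and both were lower in all 3 than in Large White. Among the Large White samples their orders were opposite, with the lncRNA highest in 3 and STARD6 highest in 1. The ratio of the lncRNA to STARD6 ran from 0.294 to 0.809 over the 6 samples. Whether their reads come from 1 transcript was not tested. C18orf54, the gene on the other side and strand, was at 2.26, 2.46 and 4.12 RPKM in Meishan and 1.65, 1.73 and 1.75 RPKM in Large White and was not called (limma adjusted p = 0.300). The call of TCONS_00061125 was lost without Meishan 2 (limma adjusted p = 0.0539) and without Large White 1, 2 or 3 (0.158, 0.143 and 0.131), with the direction kept. Without Meishan 3 its adjusted p was 0.0199. Over all features, 113 were called with all 6 samples and 3, 3 and 8 without Large White 1, 2 and 3. The call of STARD6 was also lost without Large White 1, 2 or 3 (limma adjusted p of 0.122, 0.105 and 0.0781), with limma-voom on recovered reads (0.0672) and without a filter on low values (0.161).

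The other called lncRNA was TCONS_00034714 (chr1:241455309-241456453, plus strand, 2 exons), antisense to IL33, an alarm cytokine of the interleukin-1 family. It was at 4.21, 2.99 and 5.98 RPKM in Meishan 1, 2 and 3 and at 11.9, 13.7 and 12.7 RPKM in Large White 1, 2 and 3. The breeds did not overlap, and Meishan 3 was the Meishan sample nearest to Large White. The mean RPKM was 2.91-fold higher in Large White, with a log2 fold change of -1.39 ± 0.22 (SE, limma adjusted p = 0.0452). IL33 was at 3.70, 2.42 and 4.46 RPKM in Meishan and 8.45, 9.61 and 9.26 RPKM in Large White, with a log2 fold change of -1.18 ± 0.20 (SE) that was not called (limma adjusted p = 0.0540). The ratio of the lncRNA to IL33 stayed within 1.14 to 1.43 over the 6 samples, so that the lncRNA was the higher of the pair in each. The call was lost without each sample but Meishan 3, at limma adjusted p of 0.0935 and 0.0920 without Meishan 1 and 2 and of 0.211, 0.218 and 0.175 without Large White 1, 2 and 3. Without Meishan 3 it was 0.00823. IL33 passed the limits without Meishan 3 (limma adjusted p = 0.0196) and with limma-voom on recovered reads (0.0478).

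**Figure D4:**
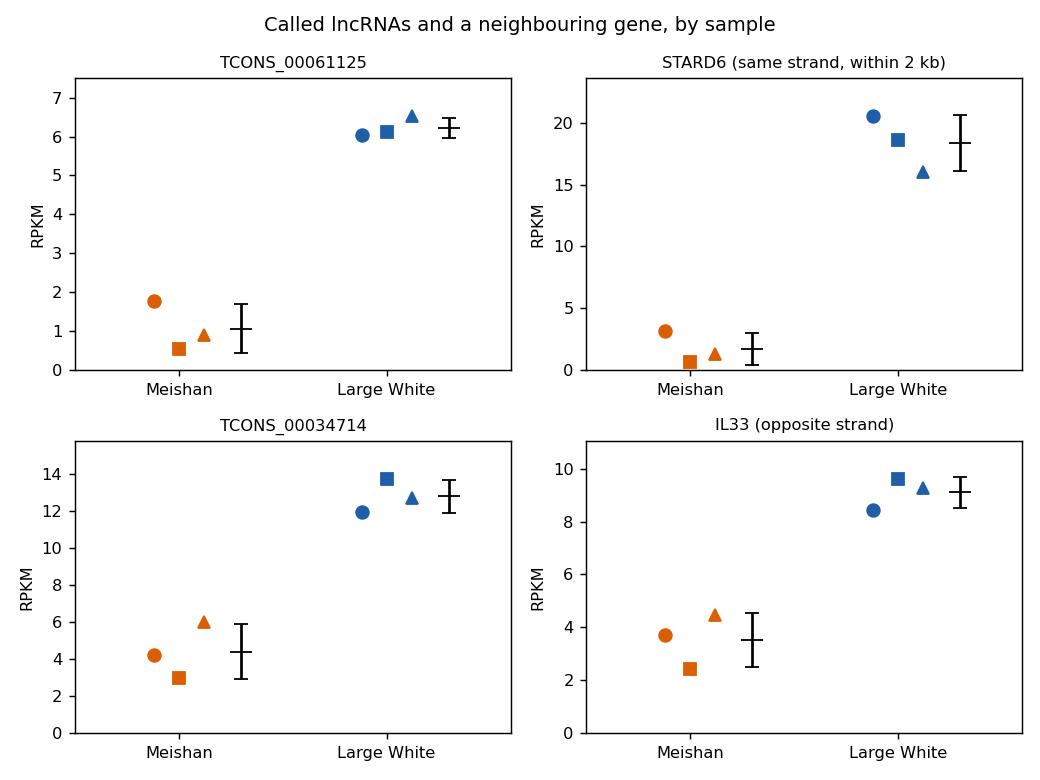
RPKM by sample of the 2 called lncRNAs and of the neighbouring genes STARD6 and IL33, Meishan in orange and Large White in blue, with the mean and SD of each breed (n = 3) as bars. In all 4 panels each Large White sample lies above each Meishan sample, with TCONS_00061125 at 6.03 to 6.52 RPKM in Large White and at 0.541 to 1.78 RPKM in Meishan.

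Of the 98 genes that the annotation pairs with members, 74 were tested, 1 was called (STARD6, 1.35%) and 14 (18.9%) were at an unadjusted p under 0.05. Of all protein-coding genes tested, 0.739% were called and 16.0% were at an unadjusted p under 0.05, so the counts of the paired genes lay near the background.

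In 11 of the 70 tested members the samples of the breeds did not overlap (15.7%), 7 with Meishan higher and 4 with Large White higher. This separation was found in 23.6% of all features and 18.0% of the lncRNAs tested, with Meishan higher in 9.94% and 10.4% and Large White higher in 13.6% and 7.6%. Beside TCONS_00058824 above (log2 fold change 1.08, limma adjusted p = 0.207), Meishan was higher for TCONS_00098809, an intronic lncRNA (chr10:57546590-57555146, plus strand, 2 exons) opposite to MSRB2, a mitochondrial methionine sulfoxide reductase. It was at 2.32, 1.59 and 2.88 RPKM in Meishan and at 0.280 and 1.11 RPKM in Large White 1 and 3, and was listed at 0 in Large White 2. Its gap was the largest rise among the tested members at a log2 fold change of 1.21 ± 0.31 (SE), and it was not called (limma adjusted p = 0.137). MSRB2 itself was at 5.89 to 24.7 RPKM with the breeds overlapping. TCONS_00108825, intergenic, was at 1.49, 0.523 and 3.63 RPKM in Meishan and at 0.362, 0.251 and 0.378 RPKM in Large White (limma adjusted p = 0.270). In the other direction, the intergenic TCONS_00015226 was at 1.06, 1.08 and 1.23 RPKM in Meishan and at 1.48, 2.41 and 1.87 RPKM in Large White (limma adjusted p = 0.309). Without Meishan 3, TCONS_00058824 was called as well, with a limma adjusted p of 0.0232, and the number of called members rose from 2 to 3. Over all features tested, the number called rose from 113 to 257, so the added call is not particular to the list. No member reached 0.5 RPKM in every sample of 1 breed while being listed at 0 in every sample of the other, a pattern that 8 lncRNAs (0.074%) of the whole set showed.

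Single samples carried a part of the list. In Meishan 2, 6 members were at 1 RPKM or more and at least 3-fold above every other sample, all of them intergenic. These 6 were 6.90% of the 87 members that reached 1 RPKM anywhere, against 1.97% of the lncRNAs and 0.332% of the protein-coding genes that did. The leading one was TCONS_00045077, at 0.0975, 20.03 and 2.15 RPKM in Meishan 1, 2 and 3 and at 2.33, 1.76 and 2.96 RPKM in Large White 1, 2 and 3. Meishan 1 was the lowest sample with 2 recovered reads, and Meishan 2 the highest with 418. TCONS_00000566 was at 0.300, 6.94 and 1.06 RPKM in Meishan and at 0.693, 0.509 and 0.925 RPKM in Large White, again with Meishan 1 lowest and Meishan 2 highest. The other 4 were chosen after their values were seen. TCONS_00000573 was at 5.27 RPKM in Meishan 2 against 0.0460 to 0.921 RPKM, and TCONS_00000745 at 4.58 against 0.486 to 1.23 RPKM. TCONS_00081929 was at 1.96 RPKM in Meishan 2 against 0.0751 to 0.318 RPKM, and TCONS_00113068 at 1.12 RPKM against 0.267 RPKM in Meishan 3 and listed at 0 in the other samples. DDX4 was also highest in Meishan 2 and listed at 0 in Meishan 1, and the germ cell list without KIT, left out after the values were seen, summed to 5.92 RPKM in Meishan 2 against 1.93 to 3.43 RPKM in the other samples. With KIT the sums were 7.91 RPKM in Meishan 2 and 5.12 to 19.2 RPKM over all samples. KIT was at 1.99 RPKM in Meishan 2 and at 14.8 to 16.9 RPKM in Large White. Without KIT, most of the sum in Meishan 2 came from PRDM1 (3.09 RPKM) and DDX4 (1.58 RPKM). Besides these, only MAEL (0.0349 RPKM) was highest in Meishan 2. NANOS3, TFAP2C, PRDM14 and LIN28A were listed at 0 there, and DND1 was highest in Meishan 1. The meiotic list, by contrast, was lowest in Meishan 2, at 25.2 RPKM, and highest in Large White 1, at 36.1 RPKM. Of its genes, only REC8 and HORMAD1 were highest in Meishan 2. The sum of the oocyte genes was lower only in Meishan 1, and none of them was highest in Meishan 2. The part of germ cells in the 6 members led by Meishan 2 was not tested. Large White 3 led 4 members in the same way (4.60%, against 2.55% of the lncRNAs), and Meishan 1 and Large White 1 led 1 each, against 2.26% and 0.754% of the lncRNAs. Meishan 3 and Large White 2 led none, against 4.52% and 1.33% of the lncRNAs. Without replicate libraries of the same ovary, a difference between the animals and one between the libraries cannot be told apart.

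**Figure D5:**
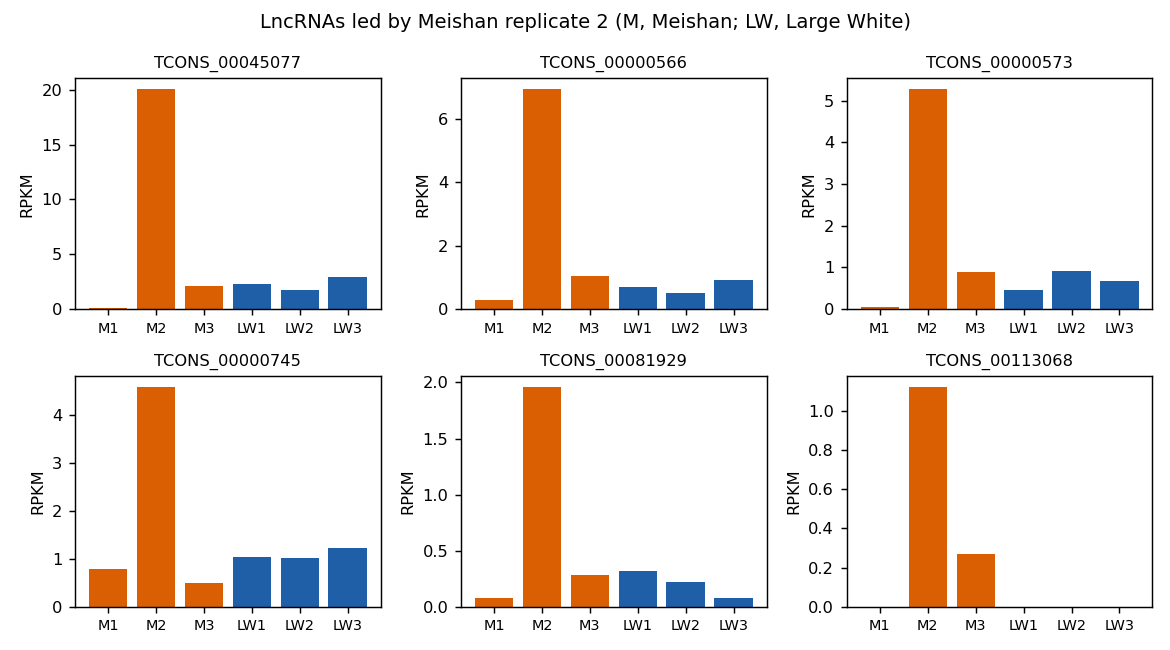
RPKM in each of the 6 samples (bars from 0) of the 6 intergenic lncRNAs that were at 1 RPKM or more and at least 3-fold above every other sample in Meishan 2, with M for Meishan and LW for Large White. The bar of Meishan 2 reaches 20.03 RPKM for TCONS_00045077 and 6.94 RPKM for TCONS_00000566, and Meishan 1 is the lowest sample for both.

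Over the 70 tested members, the log2 levels of 2 samples correlated with r = 0.722 to 0.841 for the 3 Large White pairs, 0.545 to 0.586 for the 3 Meishan pairs and 0.540 to 0.736 for the 9 pairs of different breeds. These values are across lncRNAs, which are not independent replicates, and describe Large White as the more uniform of the breeds for this list.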

How the data were processed

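Ovary RNA of 3 Meishan and 3 Large White samples was depleted of ribosomal RNA and sequenced in strand-specific paired-end libraries. The authors deposited RPKM values of 21607 protein-coding genes and 10813 lncRNAs, 1 per sample. By their methods, reads were mapped with TopHat to S. scrofa v10.2 and counted with htseq-count by strand. The submitters' processing notes name TopHat2 2.1.0 and HTSeq, and which TopHat version made these files is not settled. Counting itself can leave a feature at 0, so such values are called listed at 0.

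Members were the lncRNAs with testis as the only tissue in the 962 readable rows of the study's tissue assignment. Class came from those rows, and position, exons and neighbouring genes from the 1998 readable rows of its annotation. No value of those tables was used. Members, lists and tests were chosen with earlier results of these data known. Reads per feature were recovered from the RPKM steps. Where the annotation gives the length, as for 97 of the 498 members, all tested values were whole within 0.0001. For other features the smallest fitting length of at least 200 bases was taken, so their recovered reads are lower bounds. Floors in reads cover counting error only, and the intervals from limma cover the spread between the 6 libraries.

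The breeds were compared with limma 3.58.1 (lmFit, eBayes with trend, R 4.3.3) on log2(RPKM + 1) over features with at least 0.5 RPKM in at least 3 samples. DEGseq, used in the paper, was not run. The deposited unit is RPKM, for which limma was chosen. In simulated data on 15082 features, 77.5% of 200 features changed 4-fold were recovered with 1 false call, and with nothing changed there were 0 calls. The simulation used the same spread for every feature and held no outlying library like Meishan 3. Its rates may therefore not hold for these libraries. Other steps used Python 3.11.15 with pandas 2.3.3, numpy 2.4.6, scipy 1.17.1 and matplotlib 3.10.9.

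Named lncRNAs were the called ones, the 10 highest, the 8 highest with a readable neighbour, the 3 largest rises and falls without overlap between the breeds, and the 3 with the highest ratio of top sample to median at a mean of at least 0.5 RPKM. A rule for lncRNAs on in 1 breed and at 0 in the other found none. Gene symbols for the marker lists came from a RefSeq and Ensembl name table. Of the lists not given in the report, mesonephros and kidney genes (8 of 10 matched) summed to 1.29 to 2.89 RPKM, red blood cell genes (2 of 4) to 42.2 to 139 RPKM and testis somatic genes (7 of 11) to 802 to 1918 RPKM, most of it CYP11A1, with DMRT1, HSD17B3 and SOX9 at no more than 0.297, 0.291 and 1.54 RPKM. Lists chosen after seeing the data were steroid-making and luteal genes (969 to 2868 RPKM), follicle genes (13.5 to 830.1 RPKM) and the fetal blood and liver genes HBZ and AFP (at most 0.0920 and 0.161 RPKM). Tried as alternatives were a pseudocount of 0.1, a minimum of 0.1 RPKM or no filter, quantile and upper quartile normalization, eBayes without trend, the replicate number as a block, limma-voom on recovered reads, the adjusted p alone, other limits for detection and each sample left out. The counts of members seen in any or all samples without Meishan 3 were chosen after seeing the data.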

Additional observations from a re-analysis of the deposited data

How the results depend on the processing

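The 2 calls between the breeds depended on the processing. Upper quartile scaling and the adjusted p alone kept both. With a pseudocount of 0.1, a minimum of 0.1 RPKM, quantile normalization, eBayes without trend or limma-voom on recovered reads, 1 was called, TCONS_00061125 each time. Over all features these settings gave 62 to 109 calls, against 113 as reported. Without a filter limma called 0, with 17 at an unadjusted p under 0.05, and called 6 over all features. Leaving out 1 sample gave 0 to 3 calls, and 3 to 257 over all features. The calls of the whole set thus fell and rose as well. TCONS_00061125 had a limma adjusted p of 0.0199 to 0.162 and TCONS_00034714 of 0.00823 to 0.218 over 14 alternatives, all with the same direction. The number of members seen per sample, 166.5 on average above 0 RPKM, was 71.7 at 0.5 RPKM, and the breed difference in that number kept its sign throughout.

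The replicate number as a block gave 0 calls, with 10 at an unadjusted p under 0.05, and 27 calls over all features. Same-numbered samples of the breeds correlated in their deviations from the breed mean at r = -0.04, 0.12 and 0.15. Differently numbered samples correlated at r = -0.24 to 0.22. With 3 samples a breed, deviations from the mean depend on each other, so these values cannot decide whether same-numbered samples share a batch.

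Of 238 alternative fits of the 17 named lncRNAs, 7 reversed the direction, none of them for a call. The log2 fold change of TCONS_00045077, 0.33 as reported, was -0.21 with a pseudocount of 0.1 and -0.39 with limma-voom. With 1 sample left out it ran from -0.84 (without Meishan 2) to 1.29. In the same way, TCONS_00000566 ran from -0.057 (without Meishan 2) to 1.25, TCONS_00012614 from -0.34 to 0.042 and TCONS_00062869 from -0.85 to 0.14 (both highest without Meishan 3), and TCONS_00073937 from -0.46 to 0.096 (without Large White 1). The causes were not tested. Depth limits detection to about 0.08 RPKM on 1 kb.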
